A study of Homo sapiens with 12 samples.

Results

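The genes described here are 37 enzymes that make, interconvert, salvage or break down nucleotides, taken by gene name from the 19504 named rows of a gene count table. The names were listed by function, with earlier results of these data known. They comprise 14 genes of de novo purine and pyrimidine synthesis, 12 salvage genes and 11 others, namely the makers of the shared precursor PRPP, nucleotide kinases, ribonucleotide reductase, enzymes of dTTP supply and the dNTP hydrolase SAMHD1. All 37 had a row, and all 37 passed the filter on low counts that left 12392 genes to test. The samples were 3 libraries of MV4-11 cells given AC220, 3 of MV4-11 cells given DMSO, 3 of OCI-AML3 cells given AC220 and 3 of OCI-AML3 cells given DMSO. MV4-11 and OCI-AML3 are human acute myeloid leukaemia lines. The receptor kinase gene FLT3 has an internal tandem duplication in MV4-11, whereas OCI-AML3 has a mutated NPM1 and lacks the duplication. AC220, or quizartinib, inhibits FLT3 and was given at 5 nM for 24 h, with DMSO as the vehicle for the same time. Each line is 1 cell line, and the labels do not say whether replicates were separate cultures, so p-values reflect only how much these libraries vary, which may be technical.

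Purine nucleotides are built stepwise on the sugar phosphate PRPP up to IMP, which is then turned into AMP or GMP. The pyrimidine ring is built first as orotate, joined to PRPP to give UMP, and aminated to CTP. Ribonucleotide reductase reduces ribonucleotides to the deoxyribonucleotides needed for DNA, while salvage enzymes recover free bases and nucleosides. Leukaemia cells are treated with several drugs that enter or block these pathways, among them cytarabine and mercaptopurine.

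RNA was read with QuantSeq, which counts reads near the 3′ end of transcripts, and levels are given as CPM, a count scaled to the library's size with TMM factors. Libraries held 10877198 to 16918761 counts. The pairs of replicates differed by more than sampling noise, with chi-square values of 2.79 to 10.6 per degree of freedom. The highest came from MV4-11 AC220 replicate 1. Myeloid markers summed to 940.3 to 1020.4 CPM in MV4-11 AC220 libraries, against 625 to 657 CPM in MV4-11 DMSO libraries, and to 1096 to 1218 CPM in OCI-AML3 AC220 libraries, against 1088 to 1149.8 CPM in OCI-AML3 DMSO libraries. All 10 of those markers had counts in every group. Some of the 37 genes overlap another gene that has a row of its own. PPAT and PAICS overlap each other, PFAS the gene CTC1, ADSL SGSM3, ATIC FN1, CTPS2 S100G and SAMHD1 TLDC2. TYMP overlaps the protein-coding gene SCO2, which has no row, and whether SCO2 reads were counted on TYMP is not known. Whether counting used the strand is not given in the sources used here. Markers of other lineages summed to 2.61 to 8.77 CPM over all libraries, and 5 of the 13 with a row were at 0 in all 12, among them CD3E, HBB, HBA1 and EPCAM. In these bulk samples, fewer cells of a type and less RNA per cell cannot be told apart.

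Under AC220 most of these genes fell in MV4-11 cells, and few changed in OCI-AML3 cells. In MV4-11, 22 of the 37 fell and 6 rose past an edgeR adjusted p of 0.05, while over all tested genes 26.9% were called lower and 31.5% higher. The median log2 fold change was -0.67 over the 37 genes, against 0.07 over all tested genes. Of the 22 that fell, 13 fell more than 2-fold, and of the 6 that rose, SAMHD1 and TYMP rose more than 2-fold. In OCI-AML3, 4 genes rose and 0 fell, with 3.44% of all tested genes called higher and 0.508% lower, and the median was -0.06 over the 37 genes and -0.00 over all tested genes. At an unadjusted p of 0.05, 7 were higher and 5 lower in OCI-AML3, and DESeq2 and limma-voom also called 0 lower. Here and below, no share of all tested genes was taken at an unadjusted p, so counts at that threshold have nothing to be set against. The difference between the responses, MV4-11 minus OCI-AML3, was called lower for 20 genes and higher for 4, against 23.7% and 23% of all tested genes. All 20 were among the 22 that fell in MV4-11. The 37 genes together held 0.254 to 0.261% of the counts of MV4-11 AC220 libraries, against 0.393 to 0.394% in MV4-11 DMSO libraries. In OCI-AML3 the share was 0.420 to 0.435% under AC220 and 0.427 to 0.436% under DMSO. NME2, whose level is uncertain as described below, is a large part of these shares. It held 7004 to 8056 counts in MV4-11 AC220 libraries, where the 37 genes held 28978 to 34796. In MV4-11 DMSO libraries it held 11203 to 13046, where the 37 genes held 59182 to 66743.

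**Figure D1:**
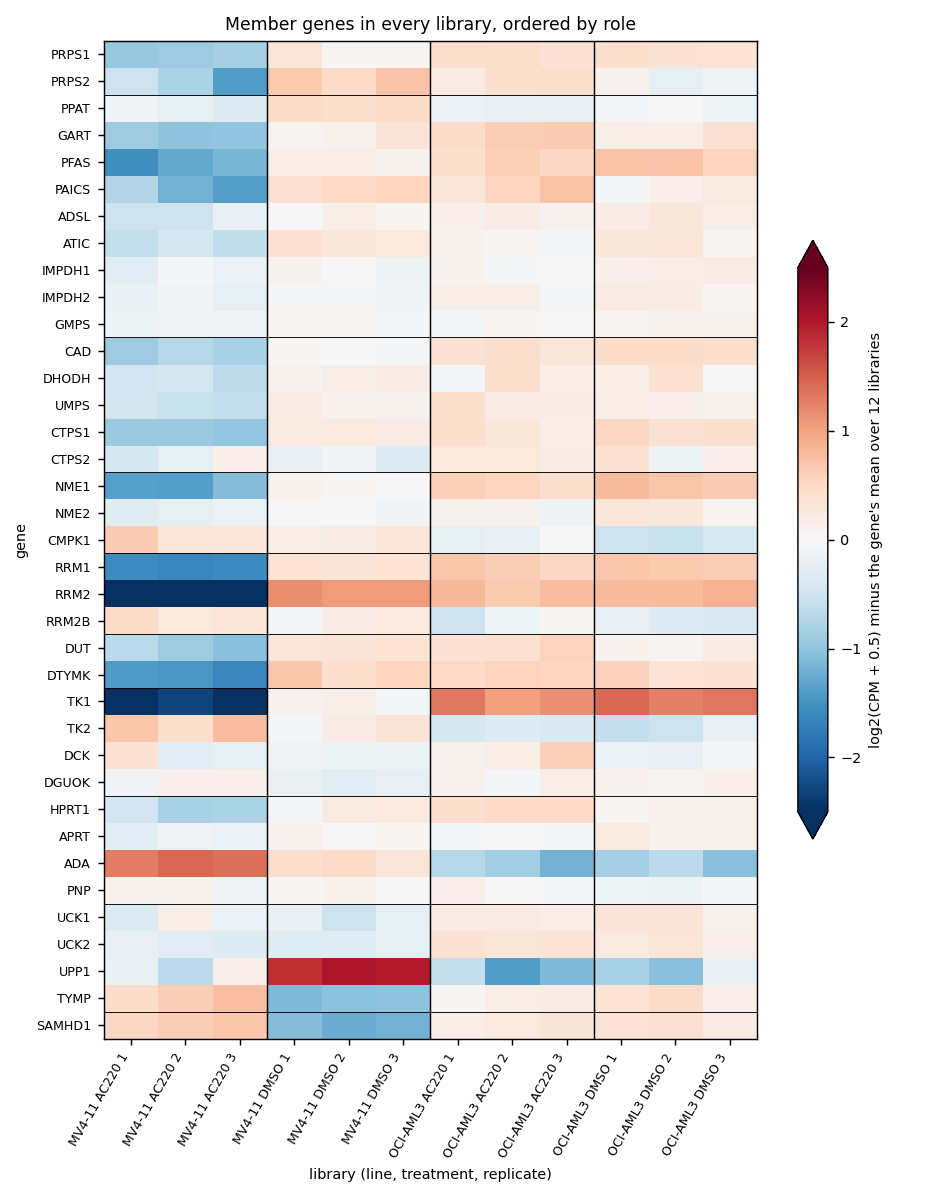
Each row is 1 of the 37 genes, ordered by role with lines between roles, and each column 1 of the 12 libraries; colour gives log2(CPM + 0.5) minus the gene's mean over the 12 libraries and ends at 2.5 in each direction. The 3 MV4-11 AC220 columns are blue for most synthesis genes, darkest for RRM2 and TK1, and red for ADA, TYMP and SAMHD1, while the OCI-AML3 columns under AC220 and DMSO look alike in most rows.

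**Figure D2:**
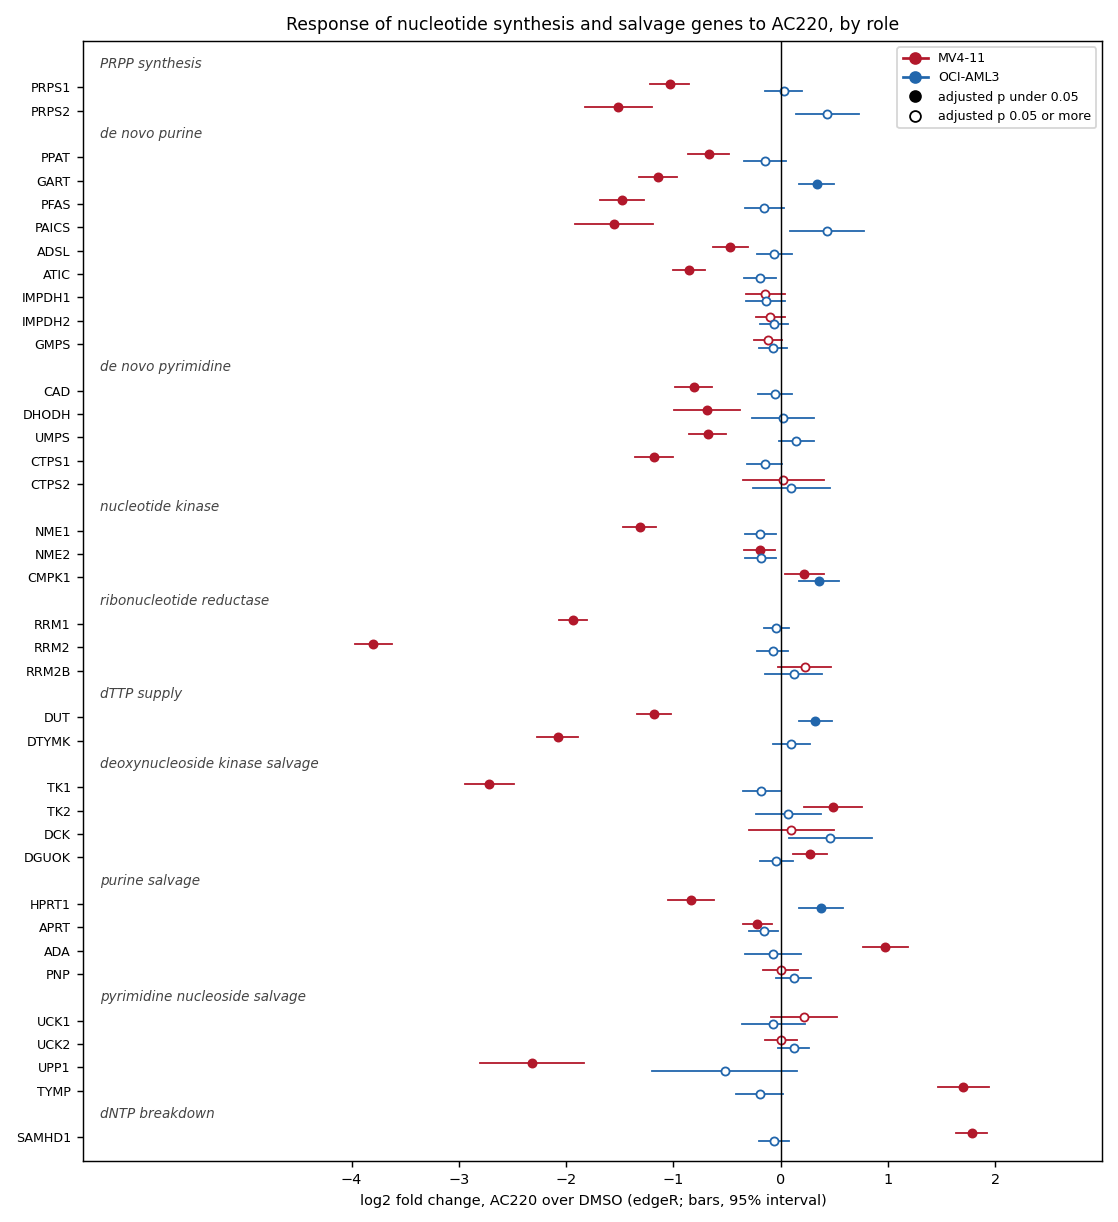
Points give the log2 fold change of AC220 over DMSO for each gene, red for MV4-11 and blue for OCI-AML3, with bars for the 95% interval; filled points have an adjusted p under 0.05. In MV4-11, 22 points lie filled below 0 and 6 above, from -3.80 for RRM2 to 1.78 for SAMHD1, whereas in OCI-AML3 all 37 points lie between -0.52 and 0.46.

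Because many of these genes fell together, their promoters were searched for the motifs of 3 transcription factors that are textbook regulators of nucleotide synthesis. RefSeq windows (GRCh38.p14) from 250 bases before to 50 after a start site were found for 34 of the 37 genes, 50 windows in all. Searched on both strands, the E2F letters TTCCCGC or TTGGCGC stood in a window of 9 of the 21 matched genes that fell in MV4-11, and in 1 of the 13 other matched genes, DCK. Among 15843 protein-coding genes 14.8% had such a window. Genes that fell had more windows each, and by window the shares were 25.7% of 35 for genes that fell, 6.67% of 15 for the others and 11.5% for protein-coding genes. The E-box CACGTG, bound by MYC with MAX, stood in 5 of the 21 and in 1 of the 13, again DCK, against 10.9% of protein-coding genes. The ATF4 element TGATGNAA was in 0 of the 34, against 3.60% of protein-coding genes. A match describes letters in a window and is no evidence of binding. The stretches below, 5′ to 3′, are the E2F matches of the 7 genes that fell furthest among those 9, in that order, the E-box matches of PPAT, ATIC and DHODH, and a stretch of DCK, which holds both motifs and was not called in either line. Capitals mark the motif or its reverse complement.
RRM2, chr2:10122349-10122409, plus strand: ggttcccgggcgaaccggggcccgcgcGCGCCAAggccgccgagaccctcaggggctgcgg
TK1, chr17:78187033-78187091, minus strand: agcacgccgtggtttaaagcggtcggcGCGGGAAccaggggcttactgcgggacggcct
UPP1, chr7:48088617-48088677, plus strand: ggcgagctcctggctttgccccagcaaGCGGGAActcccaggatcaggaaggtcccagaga
RRM1, chr11:4094435-4094495, plus strand: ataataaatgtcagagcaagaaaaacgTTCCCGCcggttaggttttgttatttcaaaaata
PAICS, chr4:56436067-56436127, plus strand: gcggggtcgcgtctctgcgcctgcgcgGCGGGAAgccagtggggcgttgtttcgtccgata
PRPS2, chrX:12791374-12791431, plus strand: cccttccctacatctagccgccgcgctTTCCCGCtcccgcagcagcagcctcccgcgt
DUT, chr15:48332128-48332204, plus strand: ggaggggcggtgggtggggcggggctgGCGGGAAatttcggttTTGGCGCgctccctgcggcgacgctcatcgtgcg
PPAT, chr4:56435765-56435824, minus strand: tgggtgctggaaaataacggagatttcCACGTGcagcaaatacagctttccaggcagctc
ATIC, chr2:215311986-215312045, plus strand: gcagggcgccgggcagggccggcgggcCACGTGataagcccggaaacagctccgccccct
DHODH, chr16:72008558-72008617, plus strand: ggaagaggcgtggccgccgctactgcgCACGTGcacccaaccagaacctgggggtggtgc
DCK, chr4:70993506-70993594, plus strand: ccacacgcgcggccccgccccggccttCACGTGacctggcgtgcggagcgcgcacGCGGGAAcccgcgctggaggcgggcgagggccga
The RRM2 match began 192 bases before a start site, that of TK1 12 bases before, that of UPP1 60 bases before, and those of DUT 42 and 26 bases before. The E2F match of RRM1 lay 223 bases before its start. The E-box of PPAT, 182 bases before its start, also lies 41 bases after a start of PAICS, since the pair are transcribed away from each other from neighbouring starts. PPAT and PAICS are both among the 5 genes with an E-box, so this 1 site is counted for each of them.

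Of the 37 genes, RRM2 of ribonucleotide reductase fell furthest. The enzyme's large catalytic subunit RRM1 and its small subunit of dividing cells, RRM2, fell in MV4-11, while RRM2B, the small subunit induced by p53 and used outside S phase, was not called. RRM2 had 13.7, 17.4 and 16.2 CPM in the 3 MV4-11 AC220 libraries, against 227, 212 and 214 CPM in the MV4-11 DMSO libraries. Every AC220 library lay far below every DMSO library, and RRM2 was 13.9-fold lower (log2 fold change -3.80 ± 0.08 (SE), edgeR adjusted p = 1.13e-24). In OCI-AML3 it had 179, 161 and 173 CPM under AC220 and 177, 177 and 185 CPM under DMSO, and these groups overlapped. RRM1 had 89.0, 84.7 and 87.5 CPM in MV4-11 AC220 libraries, against 335, 329 and 334 CPM in MV4-11 DMSO libraries, a 3.82-fold lower level with no overlap (log2 fold change -1.93 ± 0.06 (SE), edgeR adjusted p = 6.75e-21). Its OCI-AML3 values, 429.9, 407 and 379 CPM under AC220 and 427, 416 and 404 CPM under DMSO, overlapped. RRM2B had 30.3, 26.0 and 26.8 CPM in MV4-11 AC220 libraries, against 21.0, 24.6 and 25.6 CPM in MV4-11 DMSO libraries (log2 fold change 0.22 ± 0.12 (SE), edgeR adjusted p = 0.114, 95% interval -0.02 to 0.47). The 3 AC220 values were above the 3 DMSO values, but the difference did not pass the test. In OCI-AML3 RRM2B had 14.8, 19.8 and 22.0 CPM under AC220 and 18.5, 17.2 and 16.7 CPM under DMSO. Of the counts of RRM2 and RRM2B together, RRM2 held 36.3 ± 4.67% in MV4-11 AC220 libraries, against 90.1 ± 1.21% in MV4-11 DMSO libraries (SD, n = 3 each). In OCI-AML3 the share of RRM2 was 90.0 ± 2.02% under AC220 and 91.1 ± 0.597% under DMSO. The response of RRM2 differed between the lines by -3.72 ± 0.11 (SE) on the log2 scale, MV4-11 minus OCI-AML3 (edgeR adjusted p = 2.26e-21), that of RRM1 by -1.90 ± 0.09 (edgeR adjusted p = 4.11e-17), and that of RRM2B by 0.10 ± 0.18 (edgeR adjusted p = 0.667).

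The genes that supply dTTP fell as well. DTYMK, thymidylate kinase, had 21.6, 20.9 and 18.1 CPM in MV4-11 AC220 libraries, against 93.8, 76.6 and 86.3 CPM in MV4-11 DMSO libraries, 4.22-fold lower (log2 fold change -2.08 ± 0.09 (SE), edgeR adjusted p = 1.46e-17). The groups were well apart. In OCI-AML3 DTYMK had 82.7, 86.1 and 84.6 CPM under AC220 and 87.3, 74.1 and 75.3 CPM under DMSO, which overlapped. DUT, the dUTPase that yields dUMP and keeps uracil out of DNA, went opposite ways in the lines. It had 113, 98.2 and 87.8 CPM in MV4-11 AC220 libraries, against 223, 228 and 229 CPM in MV4-11 DMSO libraries (log2 fold change -1.18 ± 0.08 (SE), edgeR adjusted p = 6.83e-14). In OCI-AML3 it had 232, 238 and 266 CPM under AC220 and 193, 189.5 and 206 CPM under DMSO (log2 fold change 0.32 ± 0.07 (SE), edgeR adjusted p = 0.0174). The call in OCI-AML3 was lost without AC220 replicate 3 or without DMSO replicate 1 or 2, with edgeR adjusted p of 0.126 to 0.144. The test of the difference gave -2.18 ± 0.13 (SE) for DTYMK and -1.50 ± 0.11 for DUT on the log2 scale (edgeR adjusted p = 1.23e-14 and 1.05e-12).

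Genes of DNA replication and mitosis moved with this group. All 18 of a list of them, chosen with earlier results of these data known, were called lower in MV4-11. Of all tested genes 26.9% were called lower there. The median log2 fold change was -2.58 over the 18, against 0.07 over all tested genes. The summed level of the 18 was 599.5 to 680.0 CPM in MV4-11 AC220 libraries, against 3819 to 3934 CPM in MV4-11 DMSO libraries. In OCI-AML3, edgeR called 0 of the 18, DESeq2 1 higher and 1 lower and limma-voom 2 higher and 1 lower, with 5 higher and 3 lower at an unadjusted p of 0.05 by each tool. The median there was 0.07, and the sums were 4444 to 4718 CPM under AC220 and 4601 to 4774 CPM under DMSO. MKI67, the proliferation marker, averaged 51.0 ± 1.12 CPM in MV4-11 AC220 libraries and 373 ± 6.25 CPM in MV4-11 DMSO libraries (SD, n = 3 each). The part of the replication genes in the loss of nucleotide genes was not tested.

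The 4 deoxynucleoside kinases, which trap salvaged deoxynucleosides as monophosphates, responded differently. TK1, the cytosolic thymidine kinase of S phase, fell in MV4-11, while the mitochondrial kinases TK2 and DGUOK rose. TK1 had 8.12, 10.0 and 6.99 CPM in MV4-11 AC220 libraries, against 56.4, 57.7 and 51.2 CPM in MV4-11 DMSO libraries, 6.58-fold lower (log2 fold change -2.72 ± 0.11 (SE), edgeR adjusted p = 1.19e-18). TK2 had 23.6, 19.6 and 24.7 CPM in MV4-11 AC220 libraries, against 14.0, 16.5 and 18.1 CPM in MV4-11 DMSO libraries, with all 3 AC220 values higher (log2 fold change 0.49 ± 0.13 (SE), edgeR adjusted p = 0.00224). DGUOK, deoxyguanosine kinase, had 69.0, 80.3 and 80.3 CPM under AC220, against 64.8, 61.2 and 63.6 CPM under DMSO in that line (log2 fold change 0.27 ± 0.08 (SE), edgeR adjusted p = 0.00331), and was no longer called without AC220 replicate 3 (edgeR adjusted p = 0.0661). DCK, the deoxycytidine kinase that activates cytarabine, had 9.41, 5.86 and 5.99 CPM in MV4-11 AC220 libraries, against 6.78, 6.61 and 6.62 CPM in MV4-11 DMSO libraries. AC220 replicate 1 was the highest and the other two the lowest of the 6, and no change was called (log2 fold change 0.10 ± 0.19 (SE), edgeR adjusted p = 0.673, 95% interval -0.29 to 0.49).

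In OCI-AML3 none of the 4 kinases passed the test. TK1 had 131, 107 and 116 CPM under AC220 and 141, 126 and 133 CPM under DMSO there. TK2 had 10.7, 11.4 and 11.0 CPM under AC220 and 9.32, 9.65 and 12.5 CPM under DMSO, and DGUOK had 79.3, 71.2 and 81.3 CPM under AC220 and 79.8, 77.5 and 80.7 CPM under DMSO. The groups of these 3 overlapped. DCK had 7.85, 8.12 and 11.2 CPM under AC220, against 6.45, 6.30 and 7.01 CPM under DMSO, above in all 3 but with an edgeR adjusted p of 0.149. Of the counts of TK1 and TK2 together, TK1 held 27.2 ± 6.05% in MV4-11 AC220 libraries, against 77.3 ± 3.11% in MV4-11 DMSO libraries, and in OCI-AML3 91.4 ± 1.03% under AC220 and 92.7 ± 1.21% under DMSO (SD, n = 3 each). The response differed between the lines for TK1 by -2.54 ± 0.14 (SE) on the log2 scale (edgeR adjusted p = 4.19e-15) and for DGUOK by 0.31 ± 0.11 (edgeR adjusted p = 0.0194), a call that was lost without MV4-11 AC220 replicate 2 or 3, MV4-11 DMSO replicate 2 or OCI-AML3 AC220 replicate 2 (edgeR adjusted p = 0.0502 to 0.0774). For TK2 the difference was 0.42 ± 0.20 (edgeR adjusted p = 0.0849), and 0.0425 without MV4-11 AC220 replicate 2. For DCK it was -0.36 ± 0.27 (edgeR adjusted p = 0.279), and -0.63 with an edgeR adjusted p of 0.0453 without MV4-11 AC220 replicate 1.

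**Figure D3:**
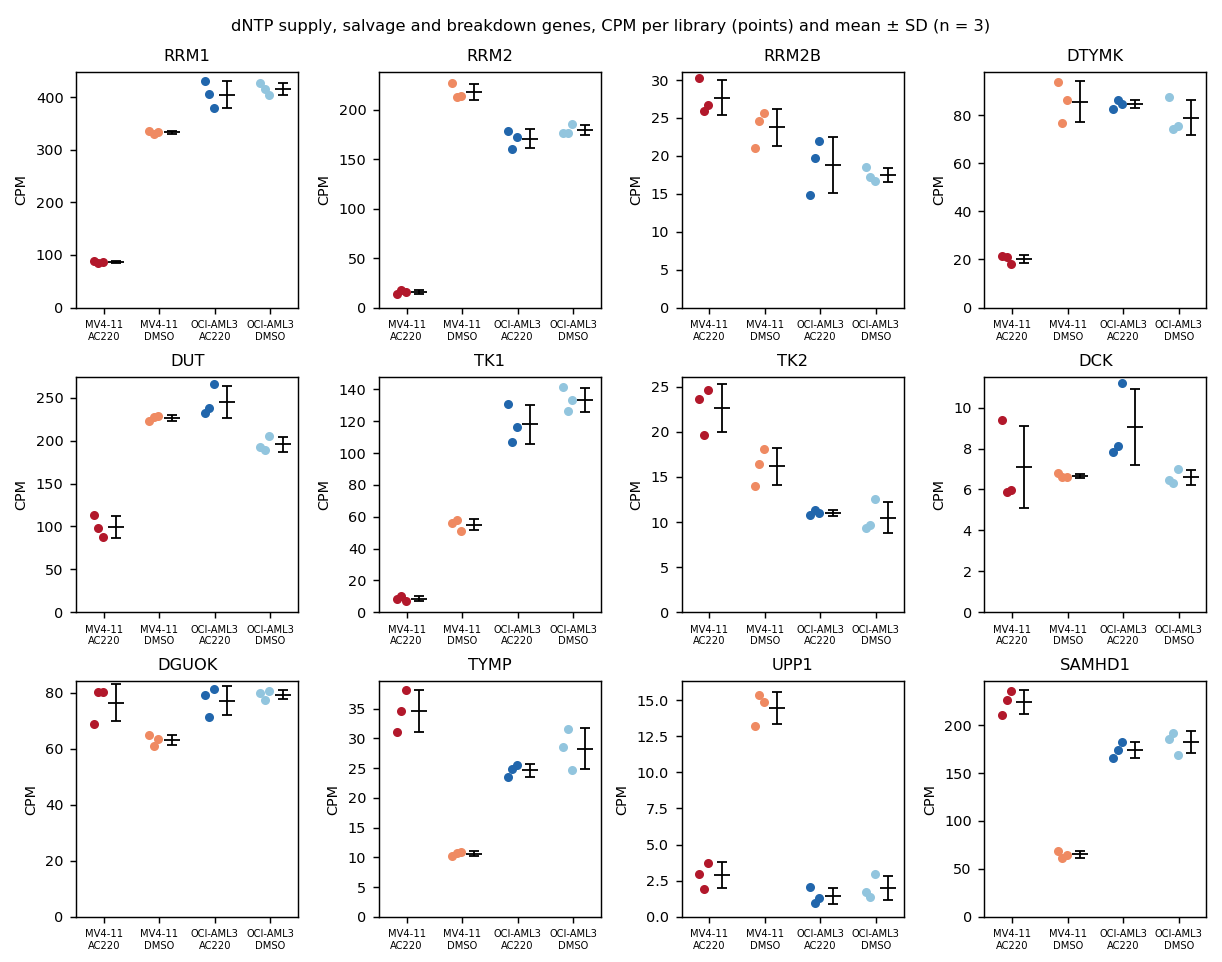
Points give TMM-scaled CPM in each library for 12 genes of dNTP supply, salvage and breakdown, with mean and SD (n = 3) beside them; groups run from MV4-11 AC220 to OCI-AML3 DMSO, and every axis starts at 0. RRM1, RRM2, DTYMK, DUT, TK1 and UPP1 are lower, and TK2, DGUOK, TYMP and SAMHD1 higher, in the MV4-11 AC220 libraries than in the MV4-11 DMSO libraries.

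SAMHD1, which cleaves dNTPs back to deoxynucleosides, rose in MV4-11. It had 210.3, 226 and 236 CPM in MV4-11 AC220 libraries, against 69.1, 61.9 and 64.5 CPM in MV4-11 DMSO libraries, 3.44-fold higher with no overlap (log2 fold change 1.78 ± 0.07 (SE), edgeR adjusted p = 8.29e-19). In OCI-AML3 it had 165, 174 and 183 CPM under AC220 and 186, 192 and 169 CPM under DMSO, which overlapped. The response differed by 1.85 ± 0.10 (SE) on the log2 scale (edgeR adjusted p = 1.77e-15). Under DMSO, MV4-11 had 2.79-fold less SAMHD1 than OCI-AML3 (log2 fold change -1.48 ± 0.07 (SE), edgeR adjusted p = 3.71e-17), and the MV4-11 AC220 libraries lay above all 6 OCI-AML3 libraries. SAMHD1 is abundant in mature myeloid cells, and the summed myeloid markers given above were also higher in MV4-11 AC220 than in MV4-11 DMSO libraries. The 10 markers did not move alike. In MV4-11, 7 were called higher, 1 lower and 2 not called, where 31.5% of all tested genes were called higher and 26.9% lower. CD14, near the floor, averaged 0.031 CPM in MV4-11 AC220 libraries and 0.328 CPM in MV4-11 DMSO libraries. The part of the myeloid markers in the rise of SAMHD1 was not tested.

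The pyrimidine nucleoside salvage genes went in different directions in MV4-11. TYMP, thymidine phosphorylase, had 31.0, 34.6 and 38.2 CPM in AC220 libraries, against 10.1, 10.8 and 10.9 CPM in DMSO libraries, 3.26-fold higher (log2 fold change 1.70 ± 0.12 (SE), edgeR adjusted p = 1.87e-13). In OCI-AML3 it had 23.4, 24.9 and 25.5 CPM under AC220 and 28.6, 31.6 and 24.6 CPM under DMSO. UPP1, uridine phosphorylase, was 4.99-fold lower in MV4-11, with 2.96, 1.95 and 3.72 CPM under AC220, against 13.2, 15.3 and 14.8 CPM under DMSO (log2 fold change -2.32 ± 0.24 (SE), edgeR adjusted p = 1.42e-09). UPP1 rests on 21 to 41 counts in MV4-11 AC220 libraries and on 14 to 41 counts in OCI-AML3 libraries, where no change was called. The uridine-cytidine kinases UCK1 and UCK2 were not called in MV4-11, with 95% intervals of the log2 fold change of -0.09 to 0.53 and -0.14 to 0.16. The response differed between the lines by 1.90 ± 0.16 (SE) for TYMP and -1.80 ± 0.42 for UPP1 on the log2 scale (edgeR adjusted p = 4.06e-11 and 0.000727).

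Purine salvage was as mixed. HPRT1, which recovers hypoxanthine and guanine and activates mercaptopurine, fell in MV4-11 and rose in OCI-AML3. It had 22.0, 17.6 and 17.8 CPM in MV4-11 AC220 libraries, against 29.9, 36.3 and 36.7 CPM in MV4-11 DMSO libraries (log2 fold change -0.84 ± 0.11 (SE), edgeR adjusted p = 8.5e-08). It had 41.0, 43.9 and 44.3 CPM in OCI-AML3 AC220 libraries, against 32.2, 33.7 and 33.6 CPM in OCI-AML3 DMSO libraries (log2 fold change 0.38 ± 0.10 (SE), edgeR adjusted p = 0.0304). The call in OCI-AML3 was lost without AC220 replicate 2 or 3 or DMSO replicate 1 or 2 (edgeR adjusted p = 0.0962 to 0.161) and on the deposited log2 values (limma adjusted p = 0.149). Neither pair of groups overlapped, and the responses differed by -1.21 ± 0.15 (SE) on the log2 scale (edgeR adjusted p = 5.96e-08). ADA, adenosine deaminase, rose 1.97-fold in MV4-11, to 66.3 ± 3.25 CPM under AC220, against 33.7 ± 2.15 CPM under DMSO (SD, n = 3 each; edgeR adjusted p = 3.19e-09). In OCI-AML3 ADA was at 13.4 ± 2.23 CPM under AC220 and 14.0 ± 2.02 CPM under DMSO. APRT, the adenine salvage enzyme, was slightly lower in MV4-11 (log2 fold change -0.22 ± 0.07 (SE), edgeR adjusted p = 0.00558), and its response did not pass the test of a difference between the lines (-0.06, 95% interval -0.25 to 0.13). PNP, purine nucleoside phosphorylase, was not called in either line, with a 95% interval of -0.16 to 0.16 in MV4-11.

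The genes of de novo purine synthesis fell in the steps up to IMP. All 6 genes of these steps, PPAT, GART, PFAS, PAICS, ADSL and ATIC, were called lower in MV4-11, where 26.9% of all tested genes were called lower. The 3 genes of the GMP branch, IMPDH1, IMPDH2 and GMPS, were not called. GART, a trifunctional enzyme of this pathway, had 44.3, 40.9 and 41.4 CPM in MV4-11 AC220 libraries, against 86.7, 89.1 and 104 CPM in MV4-11 DMSO libraries (log2 fold change -1.14 ± 0.09 (SE), edgeR adjusted p = 1.92e-12). In OCI-AML3 GART rose, with 114, 127 and 128 CPM under AC220, against 92.2, 92.1 and 108 CPM under DMSO (log2 fold change 0.34 ± 0.08 (SE), edgeR adjusted p = 0.0206), and the responses differed by -1.48 ± 0.12 (SE) on the log2 scale (edgeR adjusted p = 1.54e-11). The call of GART in OCI-AML3 was lost without AC220 replicate 2 or 3 or DMSO replicate 1 or 2 (edgeR adjusted p = 0.0827 to 0.168). PAICS, which acts next to GART's steps, had 75.7, 54.7 and 48.2 CPM under AC220 in MV4-11, against 165, 177 and 184 CPM under DMSO, the widest relative spread among these 6 genes in AC220 libraries (log2 fold change -1.55 ± 0.16 (SE), edgeR adjusted p = 1.12e-05). PFAS averaged 14.9 ± 2.07 CPM in MV4-11 AC220 libraries and 41.5 ± 1.13 CPM in MV4-11 DMSO libraries (SD, n = 3 each; edgeR adjusted p = 2.75e-13). PPAT, the committed step, had a log2 fold change of -0.67 ± 0.09 (SE), ATIC of -0.86 ± 0.07 and ADSL of -0.47 ± 0.08. The rate-limiting GMP branch enzymes IMPDH1 and IMPDH2 had 95% intervals of -0.32 to 0.04 and -0.23 to 0.04, and GMPS of -0.24 to 0.02. GMPS was called lower without MV4-11 AC220 replicate 3, with a log2 fold change of -0.17 (edgeR adjusted p = 0.0455). The difference between the lines was called for each of the 6 genes up to IMP, from -1.98 for PAICS to -0.41 for ADSL on the log2 scale. For IMPDH1, IMPDH2 and GMPS it was -0.00, -0.03 and -0.05, and none was called.

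Upstream, both PRPP synthetases fell in MV4-11. PRPS1 had 23.7, 24.4 and 26.0 CPM in MV4-11 AC220 libraries, against 57.3, 47.3 and 47.2 CPM in MV4-11 DMSO libraries, and all 3 AC220 values were lower (log2 fold change -1.04 ± 0.09 (SE), edgeR adjusted p = 5.53e-11). In OCI-AML3 it had 62.3, 63.2 and 59.5 CPM under AC220 and 62.3, 59.5 and 59.3 CPM under DMSO, which overlapped, and the responses differed by -1.07 ± 0.12 (SE) on the log2 scale (edgeR adjusted p = 3.17e-08). PRPS2 averaged 12.7 ± 3.72 CPM in MV4-11 AC220 libraries and 36.4 ± 2.77 CPM in MV4-11 DMSO libraries (SD, n = 3 each; edgeR adjusted p = 8.14e-09). In OCI-AML3 PRPS2 averaged 30.1 ± 2.75 CPM under AC220 and 22.3 ± 2.84 CPM under DMSO (SD, n = 3 each; edgeR adjusted p = 0.0766).

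In de novo pyrimidine synthesis, 4 of 5 genes fell in MV4-11, where 26.9% of all tested genes were called lower. CTPS1, the CTP synthase that proliferating lymphocytes depend on, had 25.3, 25.1 and 24.7 CPM in MV4-11 AC220 libraries, against 56.7, 57.6 and 56.0 CPM in MV4-11 DMSO libraries (log2 fold change -1.18 ± 0.09 (SE), edgeR adjusted p = 8.66e-13). Its paralog CTPS2 had 5.54, 6.42 and 8.44 CPM under AC220, against 6.61, 7.31 and 6.04 CPM under DMSO in the same line, and the groups overlapped (log2 fold change 0.02 ± 0.18 (SE), edgeR adjusted p = 0.924, 95% interval -0.35 to 0.40). In OCI-AML3 CTPS1 had 64.1, 58.8 and 54.6 CPM under AC220 and 69.6, 62.9 and 63.7 CPM under DMSO, and CTPS2 had 9.29, 9.30 and 8.77 CPM under AC220 and 10.2, 6.91 and 8.45 CPM under DMSO. Of the counts of the pair, CTPS1 held 78.7 ± 3.83% in MV4-11 AC220 libraries, against 89.5 ± 0.763% in MV4-11 DMSO libraries (SD, n = 3 each). CAD, which carries out the opening steps, had a log2 fold change of -0.81 ± 0.08 (SE) in MV4-11, DHODH, the mitochondrial enzyme that makes orotate, of -0.69 ± 0.15, and UMPS, which makes UMP, of -0.68 ± 0.08. None of the 5 was called in OCI-AML3. The response of CTPS1 differed between the lines by -1.03 ± 0.12 (SE) on the log2 scale (edgeR adjusted p = 1.86e-08), and that of CTPS2 by -0.07 ± 0.26 (edgeR adjusted p = 0.843).

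Among the nucleotide kinases, NME1, a nucleoside diphosphate kinase, had 56.6, 55.7 and 67.7 CPM in MV4-11 AC220 libraries, against 155, 148 and 145 CPM in MV4-11 DMSO libraries (log2 fold change -1.31 ± 0.08 (SE), edgeR adjusted p = 4.59e-15). In OCI-AML3 it had 219, 211 and 196 CPM under AC220 and 252, 234 and 226 CPM under DMSO, and the responses differed by -1.13 ± 0.10 (SE) on the log2 scale (edgeR adjusted p = 3.47e-10). NME2 fell far less (log2 fold change -0.20 ± 0.07 (SE), edgeR adjusted p = 0.0183) and was no longer called without MV4-11 AC220 replicate 1 (edgeR adjusted p = 0.0687), DMSO replicate 1 (0.0522) or DMSO replicate 2 (0.0569). The level of NME2 is uncertain, because the row of the readthrough gene NME1-NME2, which overlaps it, held nearly the same level in every library, such as 649 CPM in MV4-11 AC220 replicate 2, where NME2 had 652 CPM. CMPK1, the UMP-CMP kinase, had 123, 97.2 and 97.2 CPM in MV4-11 AC220 libraries, against 86.6, 88.8 and 97.1 CPM in MV4-11 DMSO libraries (log2 fold change 0.22 ± 0.09 (SE), edgeR adjusted p = 0.0332). AC220 replicate 1 was the highest, and without it the edgeR adjusted p was 0.325. The call was also lost without DMSO replicate 1 or 2 (edgeR adjusted p = 0.130 and 0.103) and when the MV4-11 libraries were fitted alone (0.121). CMPK1 was also higher in OCI-AML3, with 66.4, 68.9 and 79.3 CPM under AC220, against 53.8, 53.5 and 60.2 CPM under DMSO (log2 fold change 0.36 ± 0.09 (SE), edgeR adjusted p = 0.0265). In OCI-AML3 the call was lost without AC220 replicate 2 or 3 or DMSO replicate 1 or 2 (edgeR adjusted p = 0.0665 to 0.205).

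Set side by side, most de novo genes fell in MV4-11, and as many salvage genes rose as fell. Of the 14 de novo genes, 10 fell and 0 rose in MV4-11 by edgeR, DESeq2 and limma-voom alike, and 0 rose at an unadjusted p of 0.05, with a median log2 fold change of -0.68. Of the 12 salvage genes, 4 fell, TK1, HPRT1, APRT and UPP1, and 4 rose, TK2, DGUOK, ADA and TYMP, with a median of 0.05, where 26.9% of all tested genes were called lower and 31.5% higher. The salvage counts in both directions lie near these shares. The salvage class, as listed, includes the phosphorylases TYMP, UPP1 and PNP and the deaminase ADA. RNA levels do not show whether such an enzyme recovers nucleosides or breaks them down. Without MV4-11 AC220 replicate 1 the salvage median was -0.03. Summed over the 14 genes, de novo levels were 804, 819 and 793 CPM in MV4-11 AC220 libraries, against 1236, 1249 and 1238 CPM in MV4-11 DMSO libraries. The salvage sum was 546 ± 16.4 CPM in MV4-11 AC220 libraries and 568 ± 3.48 CPM in MV4-11 DMSO libraries (SD, n = 3 each). In OCI-AML3 the de novo sum was 1301 ± 22.1 CPM under AC220 and 1289 ± 26.7 CPM under DMSO, and the salvage sum 662 ± 16.9 CPM under AC220 and 682 ± 18.3 CPM under DMSO. The mean log2 level of de novo genes minus that of salvage genes was 0.54 ± 0.03 in MV4-11 AC220 libraries, 1.05 ± 0.03 in MV4-11 DMSO libraries, 1.20 ± 0.09 in OCI-AML3 AC220 libraries and 1.20 ± 0.05 in OCI-AML3 DMSO libraries. With PRPS1 and PRPS2 counted as de novo, 12 of 16 fell, and the median was -0.75. The 11 other genes had 8 lower and 2 higher, CMPK1 and SAMHD1, with a median of -1.18.

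**Figure D4:**
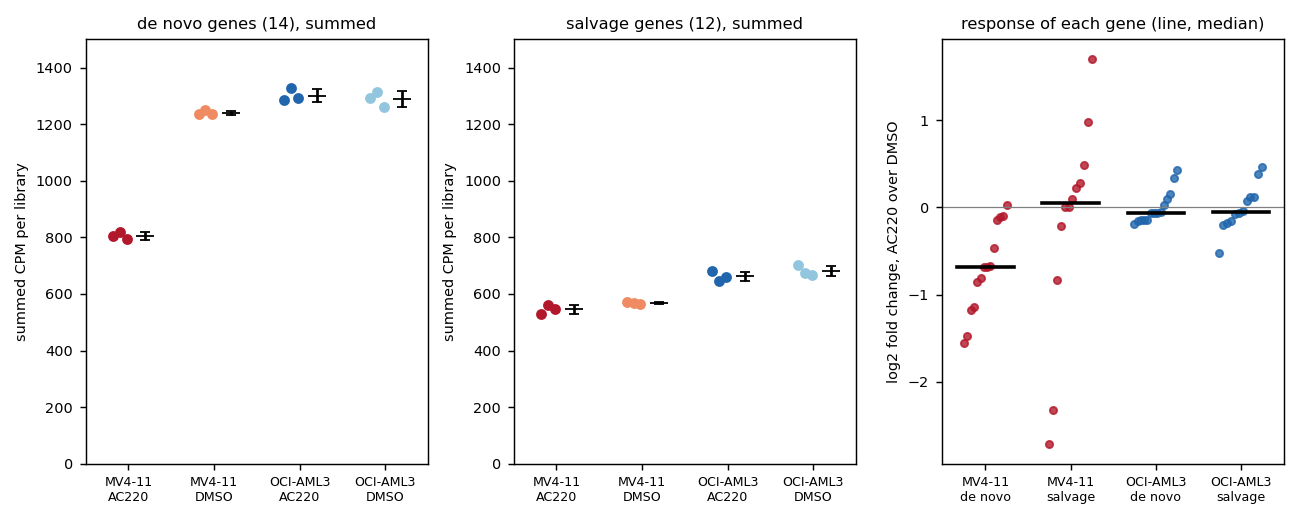
The left and middle plots give the summed CPM of the 14 de novo and the 12 salvage genes in each library, with mean and SD (n = 3), from MV4-11 AC220 to OCI-AML3 DMSO; the right plot gives each gene's log2 fold change of AC220 over DMSO, with a line at the median of each class. De novo sums are 793 to 819 CPM in MV4-11 AC220 libraries and 1236 CPM or more in all others, and the salvage responses in MV4-11 spread from -2.72 to 1.70 around a median of 0.05.

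In OCI-AML3 the 4 genes called were GART, CMPK1, DUT and HPRT1, all higher and by 1.25- to 1.30-fold. GART, DUT and HPRT1 fell in MV4-11, and CMPK1 rose there. None of the 4 calls held without AC220 replicate 3, DMSO replicate 1 or DMSO replicate 2. Without AC220 replicate 2 DUT was the 1 gene still called. Adjusted p-values from edgeR reached 0.168 for GART, 0.205 for CMPK1, 0.144 for DUT and 0.161 for HPRT1 with 1 library left out. Without MV4-11 AC220 replicate 1, PRPS2 and PAICS were called higher as well (edgeR adjusted p = 0.0165 and 0.00663). PRPS2 was also called without MV4-11 AC220 replicate 3 or OCI-AML3 AC220 replicate 1 (edgeR adjusted p = 0.0305 and 0.0438), and both were called when the OCI-AML3 libraries were fitted alone (edgeR adjusted p = 0.0216 for PRPS2 and 0.0319 for PAICS). ATIC and NME2 were called lower without DMSO replicate 3 (edgeR adjusted p = 0.0274 and 0.0278), and NME1 without MV4-11 AC220 replicate 3 (edgeR adjusted p = 0.0443).

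The lines differed in several of these genes before any drug. Under DMSO, 9 of the 37 were higher and 14 lower in MV4-11 than in OCI-AML3, where 32.1% and 33.4% of all tested genes were called in these directions. These values share the DMSO libraries with the responses above. The largest differences were in salvage and breakdown genes. UPP1 averaged 14.5 ± 1.11 CPM in MV4-11 DMSO libraries and 2.01 ± 0.84 CPM in OCI-AML3 DMSO libraries (SD, n = 3 each), 7.11-fold higher in MV4-11 (edgeR adjusted p = 3e-11). ADA was 2.40-fold higher in MV4-11, with 33.7 ± 2.15 CPM in MV4-11 and 14.0 ± 2.02 CPM in OCI-AML3 (SD, n = 3 each; edgeR adjusted p = 9.23e-11). TYMP was 2.66-fold and TK1 2.42-fold lower in MV4-11 (edgeR adjusted p = 8.26e-12 and 1.35e-13). Among de novo genes PPAT was higher in MV4-11 (log2 difference 0.50), and PFAS, CAD, IMPDH2 and CTPS1 were lower, from -0.54 for PFAS to -0.20 for CTPS1. PRPS1, IMPDH2, CTPS1 and DUT were no longer called when certain single libraries were left out, with edgeR adjusted p up to 0.067 for PRPS1, 0.0603 for IMPDH2, 0.127 for CTPS1 and 0.0518 for DUT. PAICS, at an edgeR adjusted p of 0.0568, and CTPS2, at 0.0811, were called without certain single libraries, PAICS higher and CTPS2 lower in MV4-11.

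A list of 50 other genes of nucleotide metabolism, of which 43 were tested, gave 16 lower and 8 higher in MV4-11 under AC220, with a median log2 fold change of -0.15, where 26.9% of all tested genes were called lower and 31.5% higher. Among the lower ones were MTHFD1, which makes folate cofactors for purine synthesis, and SLC29A1, the nucleoside transporter that takes up cytarabine. MTHFD1 averaged 35.6 ± 2.79 CPM in MV4-11 AC220 libraries and 123 ± 7.53 CPM in MV4-11 DMSO libraries (SD, n = 3 each), and SLC29A1 averaged 9.35 ± 1.76 CPM under AC220 and 32.8 ± 1.42 CPM under DMSO. Their log2 fold changes were -1.78 for MTHFD1 and -1.82 for SLC29A1, with an edgeR adjusted p of at most 1.04e-14. Among the higher ones were NME3, a further nucleoside diphosphate kinase, and the adenylate kinases AK1 and AK4, with log2 fold changes of 1.21, 1.44 and 1.50 and an edgeR adjusted p of at most 2.84e-07. In OCI-AML3 edgeR called 1 of the 43 higher and 0 lower, where 3.44% of all tested genes were called higher and 0.508% lower. These counts lie near those shares. The gene was NT5E, the cell-surface nucleotidase CD73, at 14.3 ± 3.94 CPM under AC220 and 8.23 ± 0.872 CPM under DMSO (SD, n = 3 each, edgeR adjusted p = 0.0215). Whether its call held with 1 library left out was not examined. At an unadjusted p of 0.05, edgeR had 8 higher and 3 lower. DESeq2 called 3 higher and 1 lower, with no share of all tested genes by direction taken for that tool.

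MYC, whose E-box was searched for above, averaged 22.7 ± 11.4 CPM in MV4-11 AC220 libraries and 43.2 ± 7.87 CPM in MV4-11 DMSO libraries. It averaged 48.6 ± 13.7 CPM in OCI-AML3 AC220 libraries and 20.2 ± 6.15 CPM in OCI-AML3 DMSO libraries (SD, n = 3 each). Neither difference passed the test (edgeR adjusted p = 0.0645 and 0.0979), whereas the difference between the responses, MV4-11 minus OCI-AML3, did, at -2.18 ± 0.53 (SE) on the log2 scale (edgeR adjusted p = 0.00866). DUSP6, a target of the ERK pathway downstream of FLT3, averaged 8.49 ± 1.66 CPM in MV4-11 AC220 libraries and 135 ± 1.69 CPM in MV4-11 DMSO libraries (SD, n = 3 each; edgeR adjusted p = 8.39e-22). In OCI-AML3 DUSP6 was higher under AC220, at 24.7 ± 2.89 CPM under AC220 and 17.0 ± 2.14 CPM under DMSO (SD, n = 3 each; edgeR adjusted p = 0.0105). The part of MYC in the responses of the nucleotide genes was not tested.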

How the data were processed

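Gene counts of 12 QuantSeq 3′ mRNA libraries were used as the authors deposited them, as raw counts per gene symbol with no normalization. Per the submitters' processing notes, reads were handled with cutadapt, HISAT2 and featureCounts from Subread 2.0.0 on hg19; strand use is not given in the sources used here. The authors also deposited normalised log2 values for 11075 genes, made with limma per the submitters' processing notes, which served as an alternative. The unnamed row, 0.00343 to 0.00503% of counts, was left out.

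Counts were tested with edgeR 4.0.16 (R 4.3.3): TMM scaling, filterByExpr, robust quasi-likelihood F tests, 1 mean for each of 4 groups over 12 libraries with 8 residual degrees of freedom, and Benjamini-Hochberg adjustment over 12392 genes at 0.05. Biological coefficients of variation had a common value of 8.28%. CPM use TMM-scaled library sizes and are given as mean ± SD. Intervals are 95% intervals of the fitted log2 fold change. No molecular identifiers are named in the labels, so reads may be copies of 1 molecule.

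The 37 genes, their roles and the other lists were chosen with earlier results of these data known, so counts and medians of lists have no test. Values in every library are given for ribonucleotide reductase, the gene of each role with the smallest adjusted p for the difference between the lines, paralog pairs that differed in call in MV4-11 and genes called in OCI-AML3; PAICS and, in MV4-11, UPP1 were added after their values were seen. From the list of other genes, the 3 with the smallest adjusted p in each direction are named, except 1 lower gene that is not reported here. The edgeR script was tested on simulated data.

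As alternatives, each library was left out in turn, a replicate block was added, only the compared libraries were fitted, and scaling used median-ratio factors. The filter was dropped or raised to a CPM of 1 in at least 3 libraries. Other tools were DESeq2 1.42.0, limma-voom (limma 3.58.1) and limma on the deposited log2 values. Promoter windows come from RefSeq (GRCh38.p14). ADSL, IMPDH2 and RRM2B had none.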

Additional observations from a re-analysis of the deposited data

Results flagged for a closer look

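The responses to AC220 differed between the lines, by edgeR's test of the difference itself, for 24 of the 37 genes, 20 with a lower and 4 with a higher response in MV4-11, where 23.7% of all tested genes were called lower and 23% higher. Values below are the log2 response in MV4-11 minus that in OCI-AML3. Among ribonucleotide reductase and dTTP supply genes the difference was -3.72 for RRM2, -1.90 for RRM1, -2.18 for DTYMK and -1.50 for DUT. Among de novo purine genes it was -1.98 for PAICS, -1.48 for GART, -1.33 for PFAS, -0.66 for ATIC, -0.53 for PPAT and -0.41 for ADSL. For the PRPP synthetases it was -1.95 for PRPS2 and -1.07 for PRPS1. For pyrimidine synthesis it was -1.03 for CTPS1, -0.83 for UMPS, -0.76 for CAD and -0.71 for DHODH, and for the kinase NME1 it was -1.13. Salvage genes lay on both sides, with -2.54 for TK1, -1.80 for UPP1 and -1.21 for HPRT1 below 0, and 1.90 for TYMP, 1.05 for ADA and 0.31 for DGUOK above it. SAMHD1 had a difference of 1.85. DUT, GART and HPRT1 were the members called in opposite directions in the lines, lower in MV4-11 and higher in OCI-AML3. None of the 3 calls in OCI-AML3 held without AC220 replicate 3, DMSO replicate 1 or DMSO replicate 2 of that line, or on the deposited log2 values.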

How the results depend on the processing

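The calls of genes lower in MV4-11 numbered 21 to 23 under every alternative run, and those in the difference between the lines 19 to 21. With 1 library left out, 25 of the 28 calls in MV4-11 held in all 12 fits, all but NME2, CMPK1 and DGUOK, and 23 of 24 in the difference, all but DGUOK. The OCI-AML3 response depended most on the processing. The count of all genes called there, 489, was 836 with no filter, 813 by DESeq2, 1 on the deposited normalised log2 values and 13 to 1136 with 1 library left out (1136 without MV4-11 AC220 replicate 1, 13 without OCI-AML3 DMSO replicate 1). Of the 37 genes, 4 were called higher there, against 0 on the deposited log2 values and 0 to 6 with 1 library left out, and 0 lower, against 0 to 2. The cause was not tested. With 1 library left out, the salvage median log2 fold change in MV4-11 was -0.031 to 0.085, and that between the lines under DMSO -0.060 to -0.0053. Whether the replicate numbers pair the libraries was not settled. Deviations of same-numbered libraries correlated at -0.123 to 0.126 over genes, with 1 of 18 pairs above 0.1. Those of different-numbered libraries correlated at -0.091 to 0.146, with 3 of 36 pairs above 0.1. Within OCI-AML3, AC220 and DMSO libraries of the same number correlated at 0.038 or more, and those of different numbers at 0.036 or less. Within MV4-11 the order was the opposite, with same-numbered pairs at -0.061 or less and different-numbered pairs at -0.017 or more. The replicate block gave 7080 genes in MV4-11, 381 in OCI-AML3 and 5626 for the difference, and changed no call among the 37 genes. The 25 results that changed sign were all uncalled, with log2 fold changes of at most 0.137 in size. In MV4-11, IMPDH2 was 0.025, CTPS2 -0.046, DCK -0.019 and PNP 0.035 on the deposited log2 values. PNP was 0.0059 with median-ratio size factors, 0.0047 with the stricter filter and 0.0060 by DESeq2. CTPS2 and UCK2 were -0.0030 and -0.020 with no filter, and -0.032 and -0.049 from the compared libraries alone. In OCI-AML3, DHODH was -0.050 on the deposited log2 values, -0.0074 with median-ratio size factors and -0.0082 by DESeq2. In the difference between the lines, IMPDH1, IMPDH2, GMPS, CMPK1 and APRT were 0.070, 0.083, 0.078, 0.00090 and 0.0090 on the deposited log2 values. IMPDH1, IMPDH2 and NME2 were 0.035, 0.0038 and 0.027 with median-ratio size factors and 0.034, 0.0038 and 0.027 by DESeq2. IMPDH1 was 0.0055 with the stricter filter and 0.00011 with the replicate block. With 1 library left out, the values in MV4-11 were -0.21 to 0.16 for CTPS2, -0.17 to 0.22 for DCK, -0.035 to 0.022 for PNP and -0.027 to 0.022 for UCK2. In OCI-AML3 they were -0.18 to 0.052 for ADA, -0.032 to 0.24 for CTPS2, -0.078 to 0.018 for DGUOK, -0.12 to 0.13 for DHODH, -0.0015 to 0.056 for PRPS1, -0.084 to 0.0074 for RRM1, -0.0024 to 0.26 for RRM2B and -0.0053 to 0.22 for TK2. In the difference they were -0.28 to 0.061 for CTPS2, -0.058 to 0.065 for IMPDH1, -0.090 to 0.0088 for IMPDH2, -0.087 to 0.057 for NME2 and -0.039 to 0.22 for RRM2B. Between the lines under DMSO they were -0.13 to 0.10 for DHODH, -0.15 to 0.015 for GART, -0.0050 to 0.14 for HPRT1 and -0.025 to 0.042 for UMPS. UPP1, DCK and CTPS2 rest on the fewest counts, and their intervals are the widest among the 37 genes in MV4-11.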

Other observations

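Genes of the other nucleotide metabolism list that complete the dTTP route were picked here after their values were seen. TYMS, thymidylate synthase and the target of fluorouracil, averaged 17.4 ± 4.22 CPM in MV4-11 AC220 libraries and 127 ± 5.56 CPM in MV4-11 DMSO libraries, and 206 ± 21.0 CPM in OCI-AML3 AC220 libraries and 163 ± 8.35 CPM in OCI-AML3 DMSO libraries (SD, n = 3 each). Its log2 fold change was -2.86 in MV4-11 (edgeR adjusted p = 7.57e-14) and 0.33 in OCI-AML3 (edgeR adjusted p = 0.0662). DCTD, the dCMP deaminase that feeds dUMP to TYMS, had -0.82 in MV4-11 and 0.34 in OCI-AML3 (edgeR adjusted p = 3.81e-07 and 0.0592). The nucleotide-cleaning pyrophosphatases DCTPP1 and NUDT1 had -0.94 and -0.85 in MV4-11 (edgeR adjusted p = 2.04e-11 and 9.26e-10). Of the cytosolic nucleotidases, NT5C3A fell with -0.89 and NT5C2, which inactivates mercaptopurine nucleotides, rose with 0.38 in MV4-11 (edgeR adjusted p = 7.63e-07 and 0.00106).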
